A study of Drosophila melanogaster with 6 samples.

Results

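The pull-down of Strep-tagged Asterix from ultraviolet-crosslinked cells was compared with the same pull-down from cells that had not been crosslinked. The aim was to show which RNAs take a larger or smaller share of reads once RNA and protein are covalently joined. The comparison was defined by the labels alone and took 3 of the 6 libraries of the series, 2 crosslinked pull-downs (crosslinked IP) and 1 non-crosslinked pull-down (non-crosslinked IP). The 3 input libraries, 2 crosslinked and 1 non-crosslinked, were set beside them. All cells were OSS cells, a Drosophila line of the somatic sheath of the ovary. They had been transfected with a pAWG plasmid, a vector with the act5c promoter, carrying Asterix (Gtsf1) fused at its C-terminus to TEV-Strep, in every group. The crosslinked IP and crosslinked input cells received 254 nm light for about 45 seconds at 400 mJ, and the labels give no crosslinking for the non-crosslinked IP and input. Pull-downs were made on MagStrep XT beads after DNase and RNase I treatment of the lysate. No pull-down from cells without the tagged protein was analysed here, so RNA held by the beads and RNA bound by Asterix cannot be told apart in any single library.

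Asterix is a small zinc finger protein that binds Piwi in the nucleus and is needed for Piwi to silence transposons during transcription. In ovarian somatic cells Piwi is loaded with piRNAs made largely from one long precursor, the flamenco (flam) transcript, whose targets are chiefly retroviruses of the Gypsy group. In eCLIP, short-wave ultraviolet light forms bonds between RNA bases and protein side chains that touch them, and RNA fragments left after RNase treatment are sequenced. RNA that stays with the beads or the protein without such a bond also enters a library, and a pull-down without crosslinking shows its make-up. All levels given here are relative to a library's own reads. Higher and lower therefore refer to the make-up of a library and do not give amounts of RNA.

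Annotated reads numbered 2206919 and 2921685 for crosslinked IP replicates 1 and 2 and 2018241 for the non-crosslinked IP. Reads outside any annotation, which were left out, were 8.89% and 7.87% of the crosslinked IP libraries and 13.6% of the non-crosslinked IP. Without ribosomal RNA 706463 and 890681 annotated reads remained in the crosslinked IP libraries and 804869 in the non-crosslinked IP. A level of 3 reads, the floor used here, equals 1.36 and 1.03 CPM (counts scaled to 1000000 annotated reads) in the crosslinked IP libraries and 1.49 CPM in the non-crosslinked IP. The crosslinked IP libraries differed from each other by more than counting noise, with a chi-square of 6.73 per degree of freedom over 5001 genes and elements. All 6 markers of ovarian somatic cells had more than 3 reads in every input, as did 2 of 8 germline markers (krimp and rhi), 1 of 3 hemocyte markers (srp) and 1 of 2 muscle markers (Act57B). Summed marker reads in the inputs were 3002 and 3728 with crosslinking and 2627.9 without for ovarian somatic cells, 267 and 350.5 against 228.7 for hemocytes, 44 and 74.5 against 41 for the germline, and 20.8 and 16.4 against 13 for muscle. The gene of the tagged protein, arx, had 2 and 2.5 exon reads with crosslinking and 1.5 without in the pull-downs, under the floor throughout, so it does not check the labels.

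Reads were summed by gene, element, anticodon or RNA name within each annotation class, called an entry here. An entry was counted as higher or lower with crosslinking where edgeR's quasi-likelihood test gave an adjusted p under 0.05 in the same direction with both totals, all annotated reads and annotated reads without rRNA. The non-crosslinked IP has 1 library, so the test assumes that it varies like the replicated crosslinked groups, and it measures the spread between libraries that the labels do not say came from separate cultures. Exchanging 2 libraries with 1 in an exact permutation test allows no p below 0.333, so none was run.

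Of 4886 entries tested, 320 were higher in the crosslinked IP (6.55%) and 577 were lower (11.8%). None was called in opposite directions by the totals. A change of total shifts all log2 fold changes by a nearly equal amount, so opposite calls were hardly possible. With all annotated reads as the total 1312 entries were called, 320 higher and 992 lower, with a median log2 fold change of -0.22. With rRNA left out 1195 were called, 618 higher and 577 lower, with a median of 0.14. Without crosslinked IP replicate 2 the first of these counts was 650, and 189 of the 320 higher and 404 of the 577 lower entries remained past the threshold. With DESeq2's Wald test 514 were called, and 150 of the 320 and 342 of the 577 remained.

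**Figure D1:**
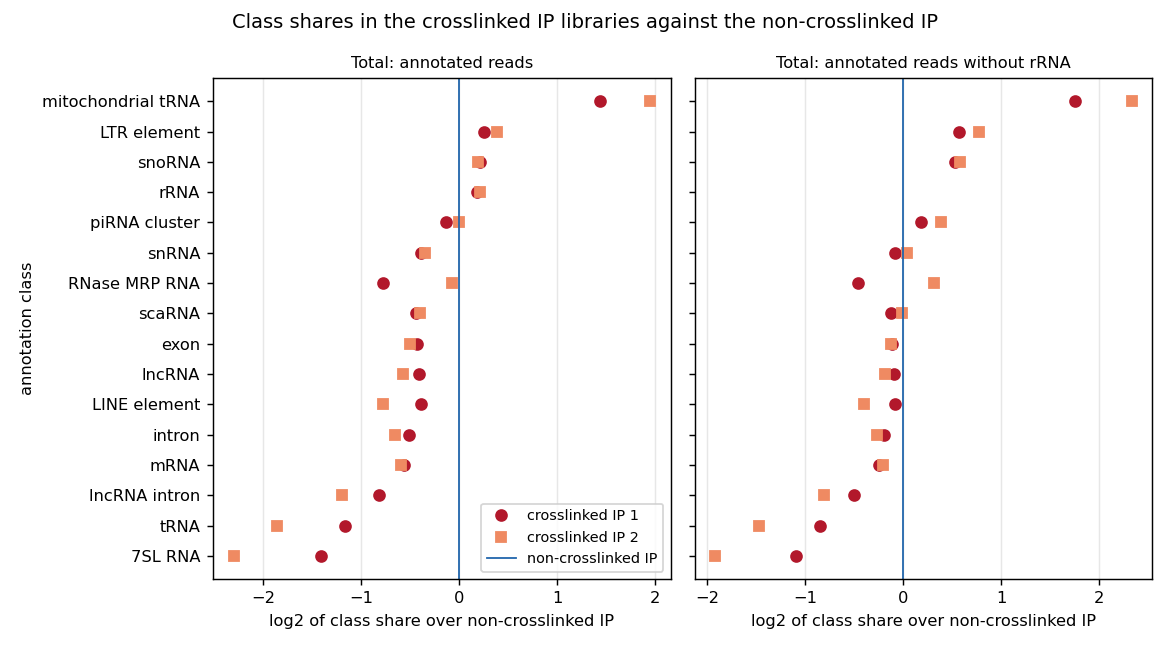
Each point is the share of one of the annotation classes named on the vertical axis, a selection of all classes, in crosslinked IP 1 (circles) or 2 (squares) over its share in the non-crosslinked IP (blue line), on a log2 axis. Shares are of annotated reads on the left and of annotated reads without rRNA on the right, where rRNA has no value. Of the classes drawn mitochondrial tRNA lies farthest to the right, with log2 ratios of 1.44 and 1.95 on the left, and 7SL RNA and tRNA lie farthest to the left.

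Ribosomal RNA took 68.0% and 69.5% of the annotated reads of the crosslinked IP libraries and 60.1% of those of the non-crosslinked IP, so every other share moves with it and was computed with both totals. The make-up of the crosslinked IP was richer in rRNA, small nucleolar RNA, LTR transposons and mitochondrial tRNA, and poorer in nuclear tRNA, 7SL RNA and introns of long non-coding RNA. Nuclear tRNA made up 2.26% and 1.40% of annotated reads in the crosslinked IP libraries, against 5.06% in the non-crosslinked IP (95% Wilson interval 5.03% to 5.09%), a log2 ratio of the means of -1.47. Both crosslinked libraries lay below the non-crosslinked one, and they differed from each other by far more than the width of that interval. The tRNA share also differed in the same direction in the inputs, at 0.191% and 0.179% with crosslinking and 0.521% without. The 7SL RNA, the RNA of the signal recognition particle, made up 0.352% and 0.189%, against 0.935% in the non-crosslinked IP. Its inputs were at 0.226% and 0.235% with crosslinking and at 0.484% without. Both crosslinked libraries were again the lower in IP and input.

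Small nucleolar RNA took 10.5% and 10.3% with crosslinking and 9.01% without, or 32.6% and 33.8% against 22.6% with rRNA left out. Mitochondrial tRNA made up 0.0288% and 0.0409% with crosslinking and 0.0106% without. The crosslinked libraries were above the non-crosslinked one in both classes.

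Introns of long non-coding RNA genes made up 0.582% and 0.448% of the crosslinked IP libraries and 1.03% of the non-crosslinked IP, a log2 ratio of -0.996. Introns of other genes were at 5.20% and 4.71% in the crosslinked IP libraries and at 7.41% in the non-crosslinked IP, and exons were at 5.05% and 4.80% with crosslinking and at 6.83% without. These 3 classes stayed lower in both crosslinked libraries with rRNA left out of the total, where the log2 ratios were -0.65, -0.23 and -0.12. Small nuclear RNA made up 3.43% and 3.55% of the crosslinked IP libraries and 4.51% of the non-crosslinked IP, but without rRNA in the total its share in the non-crosslinked IP, 11.3%, lay between 10.7% and 11.6% in the crosslinked IP libraries. The share of piRNA clusters, 1.94% and 2.14% in the crosslinked IP libraries and 2.14% in the non-crosslinked IP, had a log2 ratio of -0.069 that turned to 0.29 without rRNA.

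Ribosomal RNA differed in its make-up as well as in its share of reads. Reads of the small-subunit 18S rRNA and of 5S rRNA were several times more abundant in the crosslinked IP, while 5.8S and the fly-specific 2S rRNA were less abundant. The 18S rRNA made up 8.85% and 9.71% of annotated reads in the crosslinked IP libraries, against 2.25% in the non-crosslinked IP. It was higher in both crosslinked libraries, by a log2 fold change of 2.04 ± 0.17 (SE, adjusted p 7.48e-30 by edgeR). The 5S rRNA, which is transcribed apart from the other rRNAs by RNA polymerase III, made up 4.67% and 5.60% in the crosslinked IP libraries, against 0.693% in the non-crosslinked IP, and rose by 2.89 ± 0.19 (SE, adjusted p 1.32e-49 by edgeR). A listed 5S pseudogene, CR33363, which may share reads with 5S genes, had 61.2 and 69.8 CPM with crosslinking and 9.41 CPM without, and rose by 2.80.

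The 5.8S rRNA made up 0.447% and 0.382% of the crosslinked IP libraries, against 1.22% of the non-crosslinked IP, and the 2S rRNA had 121 and 92.3 CPM in the crosslinked IP libraries, against 475 CPM in the non-crosslinked IP. The 2S rRNA fell by a log2 fold change of 2.16 ± 0.25 (SE, adjusted p 1.53e-15 by edgeR), with both crosslinked libraries far below the non-crosslinked one. Its inputs held 1.34 and 2.18 CPM with crosslinking and 0.0914 CPM without. The most abundant entries of the class, the precursor and the 28S rRNA, were not called with both totals. The precursor, at 31.2% and 31.4% in the crosslinked IP libraries and 30.2% in the non-crosslinked IP, had a log2 fold change of 0.053 (adjusted p 0.807). The 28S rRNA, at 16.0% and 15.1% with crosslinking and 21.7% without, fell by 0.48 with all annotated reads as the total (adjusted p 0.00230 by edgeR) and did not pass with rRNA left out. A 28S fragment listed apart from 28S was higher, at 6.35% and 6.70% with crosslinking and 4.01% without (log2 fold change 0.70). Reads of the precursor, 28S and this fragment can be divided between these entries, so their levels are uncertain. In the inputs 18S and 5S were also higher with crosslinking, at 5.36% and 5.91% against 4.07% for 18S and at 6.17% and 4.13% against 2.09% for 5S.

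**Figure D2:**
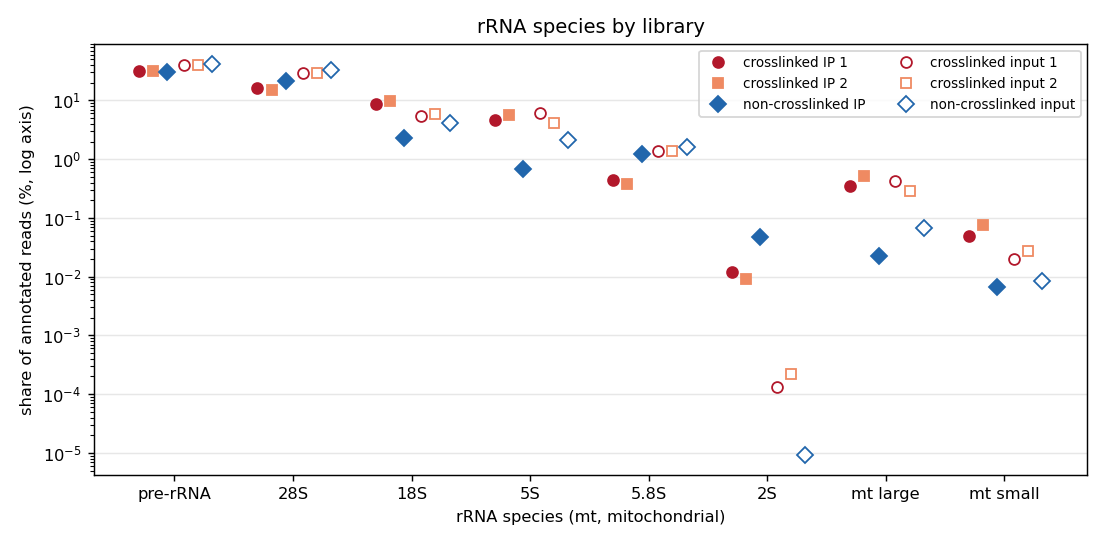
Share of annotated reads taken by each rRNA species in every library, in percent on a log axis, with filled symbols for IP and open symbols for input libraries. For 18S, 5S and both mitochondrial rRNAs the crosslinked IP points lie above the non-crosslinked IP, as at 8.85% and 9.71% against 2.25% for 18S, and for 5.8S and 2S they lie below it.

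In the IP libraries RNAs encoded by the mitochondrial genome split by kind. Both rRNAs and 10 of the 12 tRNAs with enough reads to be tested were higher in the crosslinked IP, and no messenger RNA was. The large mitochondrial rRNA had 3509 and 5201 CPM in the crosslinked IP libraries, against 224 CPM in the non-crosslinked IP. Both crosslinked libraries lay more than 10-fold above the non-crosslinked one, with a log2 fold change of 4.28 ± 0.26 (SE, adjusted p 1.34e-55 by edgeR). The small mitochondrial rRNA had 498 and 766 CPM, against 66.4 CPM in the non-crosslinked IP, and rose by 3.25 (SE 0.30). Inputs differed in the same direction, since the large rRNA had 4221 and 2920 CPM in the crosslinked inputs and 662 CPM in the non-crosslinked input.

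Of 22 mitochondrial tRNAs listed 12 had the 30 reads over the IP libraries that a test required. Of these 10 were higher and 1 lower, against 6.55% and 11.8% of all entries. Several, those for alanine, isoleucine and valine among them, reached 30 reads only through the crosslinked libraries, so the count is a description of those that passed and does not speak for all 22. The inputs differed in the same direction and by more, with 0.0116% and 0.0122% of annotated reads in mitochondrial tRNA with crosslinking and 0.00134% without. Relative to input the log2 ratio of the class was -1.435, and 1 of the 12, the tRNA for isoleucine, was higher. The tRNA for asparagine had 69.3 and 93.8 CPM in the crosslinked IP libraries, against 7.93 CPM in the non-crosslinked IP, and rose by 3.37 ± 0.41 (SE, adjusted p 9.60e-14 by edgeR). The tRNA for valine had 68 and 248 reads with crosslinking and 2 reads without, a ratio of levels of 62.2 with a counting interval of 17.1 to 516. It is high in both crosslinked libraries but uneven between them, and its log2 fold change of 5.87 was 4.94 without crosslinked IP replicate 2. The tRNA for isoleucine, with 73 and 119 reads against 1, had a ratio of 75.6 (counting interval 13.4 to 2999.7), and the tRNA for alanine, with 10 and 24 reads against 0, was at least 4.29-fold higher, with 3 reads taken as the floor. The tRNA for tryptophan was the exception, with 17 and 34 reads after crosslinking and 89 without it, and fell by 2.16 (adjusted p 3.82e-07 by edgeR). Of 11 mitochondrial messenger RNAs tested none was called by edgeR or DESeq2 and 0 had an unadjusted p under 0.05. Their log2 fold changes ran from -0.76 to 0.58. Their inputs were at 0.00670% and 0.00883% of annotated reads with crosslinking and at 0.0128% without. Relative to input 1 of the 11 was higher, and their median log2 difference was 0.65, against 0.017 for the 12 tRNAs. Relative to input, then, tRNAs and messenger RNAs did not split as in the IP libraries.

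Most nuclear tRNAs that were called were lower, and the tRNAs for serine went the other way. All 45 anticodons were tested, and 5 were higher, 19 lower and 21 neither, against 6.55% higher and 11.8% lower over all entries. The 4 serine anticodons were all higher, and the only other one was Thr-TGT. The tRNA-Ser-TGA had 809 and 950 CPM in the crosslinked IP libraries, against 137 CPM in the non-crosslinked IP, a log2 fold change of 2.69 ± 0.28 (SE, adjusted p 6.36e-19 by edgeR). The tRNA-Ser-AGA had 535 and 351 CPM, against 58.3 CPM in the non-crosslinked IP, and rose by 2.92 (SE 0.30). The tRNA-Ser-CGA had 216 and 122 CPM, against 30.9 CPM without crosslinking, and the tRNA-Ser-GCT had 154 and 103 CPM, against 25.3 CPM. All 4 were several times higher in both crosslinked libraries, and reads shared between these like tRNAs may have been divided among them. Each of the 4 stayed past the threshold without either crosslinked IP library and with DESeq2's test.

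Together the serine tRNAs took 7.58% and 10.9% of the tRNA reads of the crosslinked IP libraries and 0.496% of those of the non-crosslinked IP. In the inputs they took 1.37% and 1.56% with crosslinking and 0.253% without. Serine, leucine and selenocysteine tRNAs share a long variable arm that other cytoplasmic tRNAs lack. Of the 5 leucine anticodons none was called with both totals by edgeR or passed with DESeq2, and 2 had an unadjusted p under 0.05, with log2 fold changes from -0.97 to -0.22. The selenocysteine tRNA had 40.3 and 53.1 CPM in the crosslinked IP libraries and 148 CPM in the non-crosslinked IP, and fell by 1.66 (adjusted p 1.26e-07 by edgeR). The tRNA-Thr-TGT had 132 and 120 CPM with crosslinking and 71.8 CPM without. Its log2 fold change was 0.81 (adjusted p 0.0272 by edgeR), and it did not pass without crosslinked IP replicate 1 (0.74, adjusted p 0.0839) or replicate 2 (0.88, adjusted p 0.0600) or with DESeq2.

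The anticodons that fell included the most abundant ones. The tRNA-Asp-GTC, the anticodon with most reads in all 3 IP libraries, had 7922 and 3989 CPM in the crosslinked IP libraries, against 18259 CPM in the non-crosslinked IP. It fell by a log2 fold change of 1.62 ± 0.18 (SE, adjusted p 5.71e-16 by edgeR). Its inputs were also lower with crosslinking, at 1086 and 993 CPM against 3800 CPM. Relative to input its log2 difference was 0.25, and it was not called. The largest fall was that of tRNA-Glu-CTC, with 4125 and 2323 CPM in the crosslinked IP libraries, against 16186 CPM in the non-crosslinked IP. It fell by 2.33 ± 0.19 (SE, adjusted p 6.14e-31 by edgeR), and both crosslinked libraries lay far below. The next falls were those of tRNA-Gly-GCC (1.96 lower on the log2 scale), tRNA-Val-CAC, tRNA-Gln-CTG and tRNA-Gly-TCC. The tRNA-Gly-GCC had 892 and 355 CPM, against 2417 CPM in the non-crosslinked IP, and without crosslinked IP replicate 1 it fell by 2.77. With DESeq2's test it did not pass (adjusted p 0.0689). For all of these anticodons crosslinked IP replicate 2 was the lower of the crosslinked libraries. Relative to input tRNA-Glu-CTC, tRNA-Gly-GCC and tRNA-Gln-CTG were lower, with log2 differences of -1.43, -1.83 and -2.37. The tRNA-Val-CAC (0.0052) and tRNA-Gly-TCC (-1.25) were not called relative to input. Anticodons for alanine, asparagine, isoleucine, methionine, phenylalanine and tyrosine were not called in either direction. Of the 19 lower anticodons 18 or more remained past the threshold without either crosslinked IP library.

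**Figure D3:**
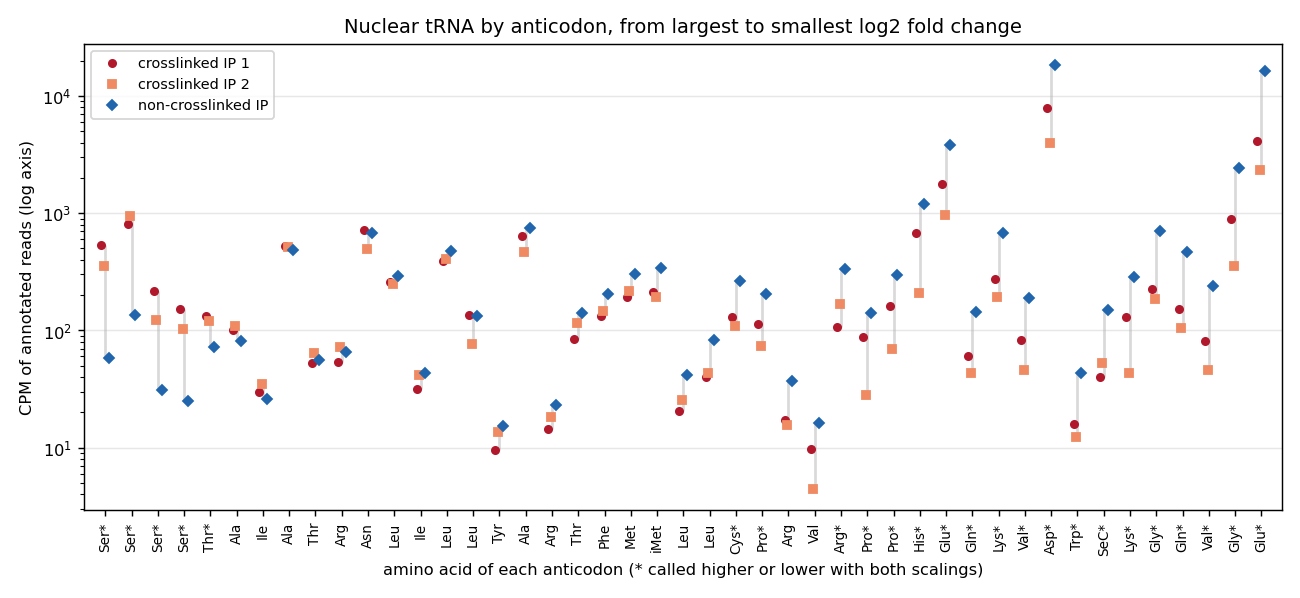
CPM of annotated reads, on a log axis, for the 45 nuclear tRNA anticodons in crosslinked IP 1 (circles), crosslinked IP 2 (squares) and the non-crosslinked IP (diamonds), ordered by log2 fold change. The 4 serine anticodons at the left have both crosslinked points above the diamond, by log2 fold changes of 2.34 to 2.92, and at the right the diamond is on top.

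The small nuclear RNAs, those of the spliceosome and others, differed by kind. The abundant U1 and U2 were not called, U6 was lower, and rarer RNAs were higher: U11 and U6atac of the minor spliceosome, U4, the histone-processing U7 and 7SK, which holds the elongation factor P-TEFb inactive. In all, 5 of 12 were higher and 1 lower, against 6.55% and 11.8% of all entries, with a median log2 fold change of 0.35. The U1 RNA had 20972 and 22084 CPM in the crosslinked IP libraries, against 26706 CPM in the non-crosslinked IP, a log2 fold change of -0.31 (adjusted p 0.187 by edgeR) that was 0.043 with rRNA left out. The U6 RNA had 1412 and 1381 CPM, against 5006 CPM in the non-crosslinked IP, and fell by 1.84 ± 0.20 (SE, adjusted p 5.60e-17 by edgeR). The 7SK RNA had 376 and 427 CPM in the crosslinked IP libraries, against 82.3 CPM without crosslinking, and rose by 2.288 ± 0.29 (SE, adjusted p 2.24e-13 by edgeR). For U6 and 7SK the crosslinked libraries were close to each other and lay far from the non-crosslinked one. The U11 RNA had 532 and 345 CPM, against 169 CPM, and rose by 1.37. The U6atac RNA had only 12 and 23 reads with crosslinking and 3 without, a ratio of levels of 4.59 (counting interval 1.45 to 23.3), and it did not pass without crosslinked IP replicate 2 (adjusted p 0.239), with DESeq2 size factors (0.0512) or with a replicate block (0.0670).

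The inputs of these RNAs differed too, with higher levels in the crosslinked ones for U1, U6, U7, U11 and 7SK. The U6 RNA, lower in the crosslinked IP, had 1583 and 1106 CPM in the crosslinked inputs, against 584 CPM in the non-crosslinked input. The U11 RNA had 176 and 133 CPM there, against 8.24 CPM. Relative to input U6 and U11 were lower with crosslinking, with log2 differences of -3.04 and -2.86. The U1 RNA had 4815 and 4036 CPM in the crosslinked inputs, against 716 CPM in the non-crosslinked input, and the U7 RNA had 162 and 153 CPM, against 0.880 CPM. The 7SK RNA had 233 and 206 CPM in the crosslinked inputs, against 18.6 CPM in the non-crosslinked input. Its log2 difference relative to input was -1.28, which was not called with both totals. Relative to input 7 of the 12 small nuclear RNAs were lower with crosslinking and none was higher, against 4.30% and 4.52% of all entries.

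Small nucleolar RNAs, many of which guide rRNA modification, made up 226 of the tested entries. Of these 89 were higher and 7 lower, against 6.55% and 11.8% of all entries, with a median log2 fold change of 0.39. Those named Psi, the H/ACA RNAs that guide pseudouridylation, had 55 of 104 higher and 3 lower, with a median of 0.67. Those named Me, the C/D RNAs that guide 2'-O-methylation, had 14 of 64 higher and 2 lower, with a median of 0.037. Among 58 with other names 20 were higher and 2 lower. Without crosslinked IP replicate 2, 51 of the 55 Psi RNAs remained and 8 of the 14 Me RNAs did. The largest rise among those with at least 300 reads was that of Psi28S-1060, listed within the ribosomal protein gene RpL17 on chromosome X, with 704 and 744 CPM in the crosslinked IP libraries, against 62.4 CPM in the non-crosslinked IP. Its crosslinked libraries were nearly equal and more than 10-fold above, with a log2 fold change of 3.54 ± 0.30 (SE, adjusted p 1.74e-28 by edgeR). Its inputs differed as much, at 157 and 135 CPM with crosslinking and 12.2 CPM without, and the log2 difference relative to input was -0.037. The snoRNA gcl-a, within the gene gcl, had 258 and 181 CPM, against 33.2 CPM without crosslinking, and rose by 2.72. The 3 snoRNAs with most reads, Psi18S-176, Psi28S-3342 and Or-aca4, were not called. The first of them had 8117 and 8541 CPM with crosslinking and 8583 CPM without.

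**Figure D4:**
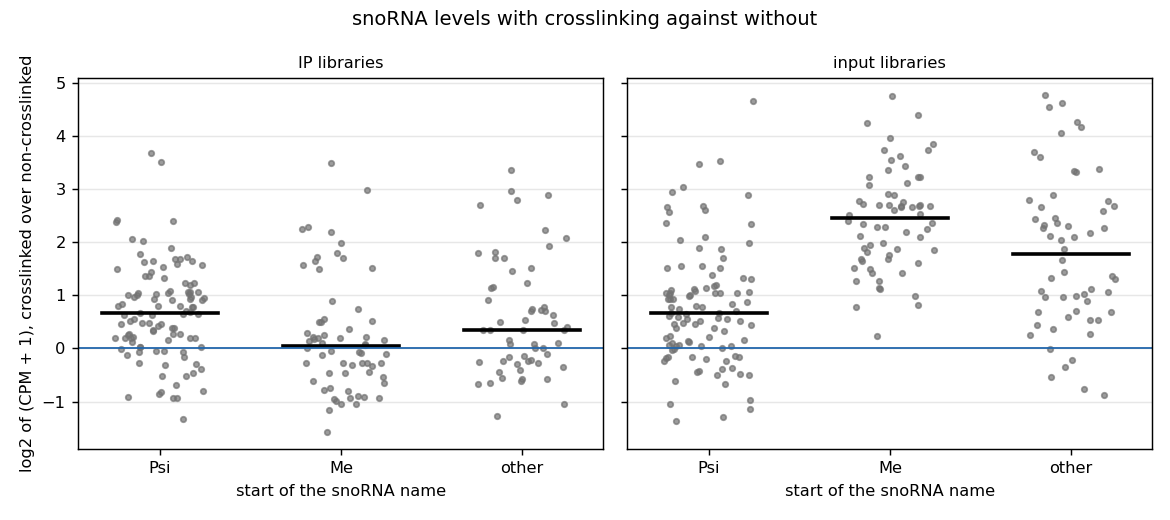
Each point is a snoRNA that passed the count filter, with the log2 of its mean CPM plus 1 in the crosslinked libraries over that in the non-crosslinked library, for IP on the left and input on the right, and black bars are medians. In the IP libraries the median is 0.66 for 104 Psi RNAs and 0.038 for 64 Me RNAs, and in the input libraries it is 0.66 and 2.45, with all 64 Me RNAs above 0.

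Small Cajal body RNAs, which guide modification of the spliceosomal RNAs, had 1 higher and 2 lower of 8 tested, against 6.55% and 11.8% of all entries. The guide PsiU1-6 had 212 and 206 CPM in the crosslinked IP libraries, against 688 CPM in the non-crosslinked IP, and fell by 1.72 ± 0.24 (SE, adjusted p 7.36e-11 by edgeR). The guide PsiU5-44 had 323 CPM in both crosslinked IP libraries and 188 CPM without crosslinking. Its inputs had 94.7 and 82.6 CPM with crosslinking and 48.2 CPM without, and its log2 difference relative to input was -0.095. Its rise of 0.78 did not pass in a fit of the 3 IP libraries alone (adjusted p 0.0758). Of the other structural RNAs, 7SL had 3524 and 1893 CPM with crosslinking and 9347 CPM without, and fell by 1.79 ± 0.19 (SE, adjusted p 3.05e-18 by edgeR). The RNA of RNase MRP, an enzyme of rRNA processing, had 1114 and 1822 CPM in the crosslinked IP libraries and 1914 CPM in the non-crosslinked IP, and was not called (log2 fold change -0.38, adjusted p 0.170).

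Transposable elements moved in both directions. Of 62 LTR elements tested 4 were higher, near the share over all entries (6.55%), and 21 were lower, above that share (11.8%). The 4 include the 3 elements with most reads, ZAM, Copia and Gypsy1, and the share of the whole class was 1.47% and 1.62% in the crosslinked IP libraries, against 1.24% in the non-crosslinked IP (1.22% to 1.25%). Copia had 4168 and 4440 CPM in the crosslinked IP libraries, against 970 CPM in the non-crosslinked IP. Its crosslinked libraries were close to each other and several times higher, with a log2 fold change of 2.15 ± 0.23 (SE, adjusted p 8.37e-19 by edgeR). In the inputs Copia had 3466 and 3940 CPM with crosslinking and 2797 CPM without. Gypsy1 had 1282 and 1422 CPM, against 701 CPM in the non-crosslinked IP, and rose by 0.95 ± 0.23 (SE, adjusted p 0.000575 by edgeR).

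ZAM, an endogenous retrovirus silenced by flamenco piRNAs and the LTR element with most reads, had 6577 and 8169 CPM in the crosslinked IP libraries and 5187 CPM in the non-crosslinked IP. Its log2 fold change was 0.51 ± 0.20 (SE, adjusted p 0.0403 by edgeR). This call was lost without crosslinked IP replicate 2 (0.34, adjusted p 0.104), with TMM factors, with DESeq2 and in a fit of the 3 IP libraries alone.

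The Gypsy-group elements active in ovarian somatic cells went mostly down. Of 15 listed and tested, 10 were lower, 1 (ZAM) higher and 4 neither, against 11.8% lower and 6.55% higher over all entries. Their median log2 fold change was -1.44, against -0.22 over all entries. Relative to input 6 of the 15 were lower and none was higher. DM412 had 117 and 96.6 CPM in the crosslinked IP libraries, against 588 CPM in the non-crosslinked IP. It fell by 2.47 ± 0.25 (SE, adjusted p 1.28e-20 by edgeR), with both crosslinked libraries far below. Stalker4 had 185 and 124 CPM, against 634 CPM in the non-crosslinked IP, and fell by 2.05 ± 0.24 (SE, adjusted p 8.55e-15 by edgeR). Blood had 35.2 and 43.1 CPM, against 159 CPM without crosslinking, and DM176 had 33.2 and 31.3 CPM, against 120 CPM. These elements were rarer in the inputs, where DM412 had 4.80 and 7.44 CPM with crosslinking and 6.05 CPM without. Reads of related elements can be divided between them.

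**Figure D5:**
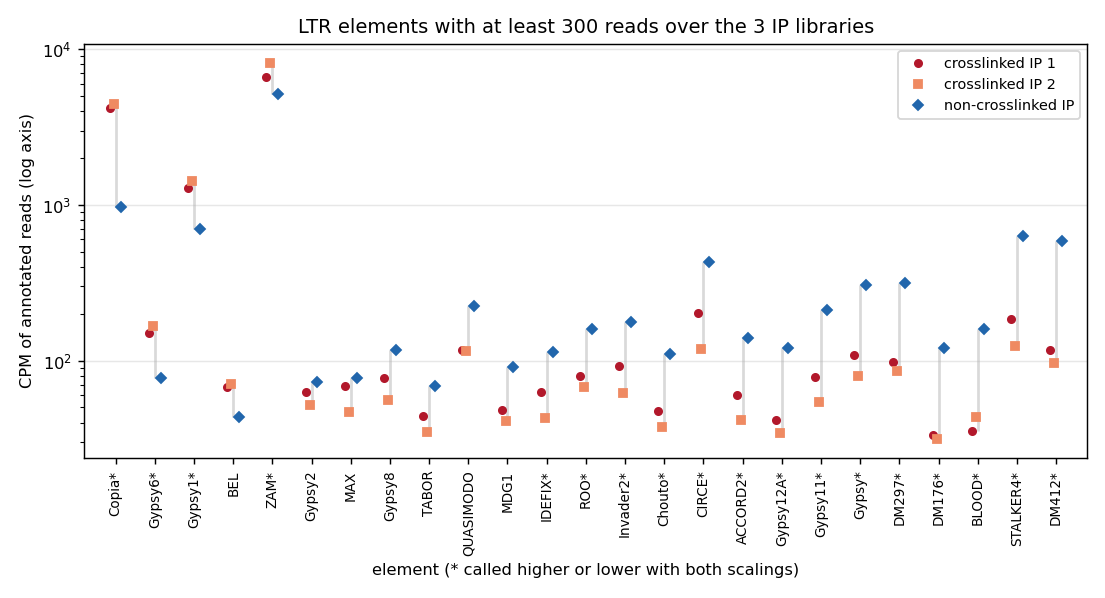
CPM of annotated reads, on a log axis, for LTR elements with at least 300 reads over the 3 IP libraries, in crosslinked IP 1 (circles), crosslinked IP 2 (squares) and the non-crosslinked IP (diamonds), ordered by log2 fold change. Copia at the left has crosslinked points at 4168 and 4440 above the diamond at 970, and DM412 at the right has 117 and 96.6 below 588.

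Among LINE elements, which move through an RNA copied at the target site, 2 of 32 were higher and 3 lower, and without crosslinked IP replicate 2, 1 of the 2 and 1 of the 3 remained. These shares are near those of all entries, 6.55% and 11.8%. DMCR1A had 190 and 108 CPM in the crosslinked IP libraries, against 368 CPM in the non-crosslinked IP. It fell by 1.31 ± 0.25 (SE, adjusted p 4.21e-06 by edgeR). In the inputs it had 23.5 and 23.3 CPM with crosslinking and 45.0 CPM without. Relative to input its log2 difference was -0.37, and it was not called. The telomeric element HeT-A had 142 and 136 CPM with crosslinking and 119 CPM without, and R1, which inserts into rRNA genes, had 117 and 105 CPM, against 171 CPM. Neither of them was called.

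RNA from piRNA source loci followed no single direction, and introns of the flamenco gene were lower in the crosslinked IP. Of 96 piRNA clusters tested 18 were higher and 15 lower, against 6.55% and 11.8% of all entries. Without crosslinked IP replicate 2, 10 of the 18 and 14 of the 15 remained. The introns of flam, at 21631891 to 21790731 of chromosome X in the Release 6 annotation, had 1975 and 1524 CPM in the crosslinked IP libraries, against 4698 CPM in the non-crosslinked IP. Both crosslinked libraries were lower, with a log2 fold change of -1.43 ± 0.21 (SE, adjusted p 5.24e-10 by edgeR). In the inputs flam introns had 232 and 269 CPM with crosslinking and 297.3 CPM without. Relative to input their log2 difference was -1.18, which was not called with both totals. The next clusters by reads, chr3L-end.24 and chr2R-end.13, had log2 fold changes of -1.497 and -1.41. Relative to input they were at -1.27 and -1.15, and neither was called with both totals. The cluster with most reads, piRNAdb-15, had 15679 and 18126 CPM in the crosslinked IP libraries and 15835 CPM in the non-crosslinked IP, between them. Its log2 fold change was 0.094 (adjusted p 0.758 by edgeR). The largest fall called among the 96 clusters was that of piRNAdb-5, with 45.8 and 56.3 CPM, against 231 CPM without crosslinking. Its log2 fold change was -2.17 ± 0.27 (SE, adjusted p 1.34e-13 by edgeR). The inputs of piRNAdb-5 were also lower with crosslinking, at 13.0 and 14.8 CPM against 46.7 CPM. Relative to input its log2 difference was -0.42, and it was not called.

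Messages of piRNA pathway genes mostly had too few reads to be tested or were not called. Of 21 genes with listed exons 7 were tested, and only piwi was called. Exons of piwi, the nuclear Argonaute that Asterix binds, had 207 and 144 CPM in the crosslinked IP libraries, against 517 CPM in the non-crosslinked IP. They fell by 1.56 ± 0.24 (SE, adjusted p 8.66e-09 by edgeR), with both crosslinked libraries lower, while the inputs had 28.5 and 35.4 CPM with crosslinking and 24.2 CPM without. Introns of piwi had 8 and 21 reads with crosslinking and 1 without, a ratio of levels of 11.4 (counting interval 1.89 to 466). They met the minimum of 30 reads for a test only through the crosslinked libraries, and the rise did not pass without crosslinked IP replicate 2 (adjusted p 0.195). The helicase gene armi (log2 fold change 1.01, edgeR adjusted p 0.0879) and tj, the transcription factor gene of somatic gonad cells (0.14), were not called.

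Among exons of all genes 86 of 2719 entries were higher and 242 lower, both below the shares of all entries (6.55% and 11.8%). Without crosslinked IP replicate 2, 26 of the 86 and 166 of the 242 remained. The largest rise among entries with at least 300 reads was in CG18343, a short gene at 12138695 to 12139324 of chromosome 2R that overlaps SkpB. Its exons held 422 and 434 reads with crosslinking, against 2 without, a ratio of levels of 168 with a counting interval of 46.5 to 1393. They met the minimum of 30 reads for a test, and that of 300 reads, only through the crosslinked libraries. The input levels were 0.323 and 0.366 CPM with crosslinking and 0.320 CPM without, so levels above 1 CPM were seen in the crosslinked IP libraries alone. Its log2 fold change was 7.40 ± 0.57 (SE, adjusted p 2.09e-34 by edgeR). The exon entries with most reads fell together. CG18273 had 1789 and 1101 CPM in the crosslinked IP libraries, against 4631 CPM in the non-crosslinked IP, and fell by 1.68 ± 0.21 (SE, adjusted p 2.09e-13 by edgeR). Nek2, which encodes a centrosomal kinase, fell by 1.67 and CG31321 by 1.64. All 3 were rare in the inputs and also lower there with crosslinking. CG18273, the most abundant of them there, had 28.9 and 29.2 CPM with crosslinking and 51.5 CPM without. Nek2 had 9.88 and 11.9 CPM against 23.5 CPM, and CG31321 had 3.90 and 5.31 CPM against 9.13 CPM. Relative to input the log2 differences were -0.86 for CG18273, -0.56 for Nek2 and -0.66 for CG31321, and none was called.

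Exons of cytoplasmic ribosomal protein genes were mostly not called, with 1 of 73 higher and none lower by edgeR, 0 called by DESeq2, 4 rises and 1 fall at an unadjusted p under 0.05, and a median log2 fold change of 0.24. That one, RpL15, had 16 and 60 reads with crosslinking and 11 without, and its log2 fold change of 1.40 was 0.41 without crosslinked IP replicate 2 (adjusted p 0.767). None of 5 histone genes and none of 8 heat shock or cognate genes was called by edgeR or DESeq2, and 1 of each list had an unadjusted p under 0.05. Among 60 entries annotated as mRNA 18 were lower, against 11.8% of all entries. None was higher by edgeR or DESeq2, against 6.55% of all entries by edgeR. There were 0 rises and 30 falls at an unadjusted p under 0.05. The entry CG34247 had 19.1 and 16.4 CPM in the crosslinked IP libraries, against 65.0 CPM in the non-crosslinked IP, and fell by 1.88. Entries of mrt and bol fell by 1.63 and 1.55.

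Introns had 76 of 1408 entries higher and 191 lower, near the shares of all entries (6.55% and 11.8%), and without crosslinked IP replicate 2, 35 and 126 of these remained. In the crosslinked IP the largest fall among entries with at least 300 reads was that of CG3902, an acyl-CoA dehydrogenase gene whose span holds the snoRNA gene Psi28S-2566. Its introns had 87.0 and 69.8 CPM in the crosslinked IP libraries, against 447 CPM in the non-crosslinked IP, a log2 fold change of -2.52 ± 0.25 (SE, adjusted p 2.16e-20 by edgeR). The inputs had 20.8 and 16.9 CPM with crosslinking and 23.3 CPM without. Introns of kl-5 and Ppr-Y, long genes of the Y chromosome with male fertility roles, fell too. The kl-5 introns had 113 and 51.6 CPM, against 445 CPM in the non-crosslinked IP, with a log2 fold change of -2.45 that was -3.11 without crosslinked IP replicate 1. The Ppr-Y introns had 102 and 69.7 CPM, against 395 CPM, and fell by 2.21. The inputs of both were also lower with crosslinking. They had 18.1 and 11.6 CPM against 47.1 CPM for kl-5, and 13.3 and 9.35 CPM against 45.6 CPM for Ppr-Y. Relative to input the log2 differences were -0.78 for kl-5 and -0.20 for Ppr-Y, and neither was called.

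Introns of ribosomal protein genes, many of which hold snoRNA genes, had 3 of 18 higher and 6 lower, against 6.55% and 11.8% of all entries. RpS16, with 5 snoRNA genes in its span, had 224 and 237 CPM in the crosslinked IP libraries, against 720 CPM in the non-crosslinked IP, and fell by 1.64 ± 0.23 (SE, adjusted p 1.99e-10 by edgeR). RpS20 had 619 and 731 CPM, against 1881 CPM, and fell by 1.48. The inputs of RpS16 were lower too, at 150 and 137 CPM with crosslinking and 457 CPM without. Those of RpS20 had 305 and 266 CPM against 650 CPM. Relative to input the log2 differences were 0.027 for RpS16 and -0.29 for RpS20, and neither was called. RpL7A went the other way, with 219 and 193 CPM with crosslinking and 74.8 CPM without. Its log2 fold change was 1.46 ± 0.29 (SE, adjusted p 1.02e-05 by edgeR). In the inputs it was also higher with crosslinking, at 66.3 and 70.9 CPM against 18.4 CPM. Relative to input its log2 difference was -0.44, and it was not called. The snoRNA Or-CD10 lies within RpL7A, and 5 snoRNA genes within RpS16, so intron and snoRNA entries may hold the same fragments. The intron entries with most reads, those of RpL3, eEF2 and CG34355, were not called with both totals.

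Long non-coding RNAs had 10 of 86 entries higher and 28 lower, against 6.55% and 11.8% of all entries. CR34335 had 242 and 360 CPM in the crosslinked IP libraries, against 67.9 CPM in the non-crosslinked IP. It rose by 2.15 ± 0.29 (SE, adjusted p 3.22e-11 by edgeR). In the inputs it was also higher with crosslinking, at 57.0 and 46.9 CPM against 9.63 CPM. Relative to input its log2 difference was -0.28, and it was not called. CR42862 had 474 and 530 CPM, against 131 CPM, and rose by 1.94. CR45940, within the gene nkd, had 318 and 195 CPM with crosslinking and 858 CPM without, and fell by 1.75 ± 0.24 (SE, adjusted p 2.05e-11 by edgeR). The inputs of CR45940 were lower too, at 4.79 and 4.73 CPM with crosslinking and 9.15 CPM without. Relative to input its log2 difference was -0.81, and it was not called. Of the snoRNA host genes, the spliced RNA of Uhg2 had 37.6 and 40.4 CPM, against 113 CPM, and fell by 1.54. Introns of Uhg1 had 17.4 and 22.4 CPM with crosslinking and 8.92 CPM without. The Uhg1 rise of 1.17 did not pass without crosslinked IP replicate 2 (adjusted p 0.259).

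Each pull-down was then set against its own input, since the inputs also differed with crosslinking. The ratio of IP to input was higher with crosslinking for 221 of the 4886 entries (4.52%) and lower for 210 (4.30%), by edgeR's test of the difference with both totals. With all annotated reads as the total 221 were higher and 374 lower, and with rRNA left out 517 were higher and 210 lower. Of the 320 entries higher in the crosslinked IP itself 106 were also higher by this ratio and 21 were lower, and of the 577 lower entries 83 were also lower and none was higher. Introns of genes made up 165 of the 221 higher entries, while snoRNAs made up 90 of the 210 lower ones, 52 of which were among the 64 tested Me RNAs. The Me RNAs had 0.101% and 0.1205% of annotated reads in the crosslinked inputs and 0.0144% in the non-crosslinked input. Relative to input the tRNA class was even with and without crosslinking, at a log2 ratio of 0.025, and snoRNA as a class turned to -0.24. Both comparisons rest on the same IP libraries, and the difference by input has 1 library for each non-crosslinked value.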

How the data were processed

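The authors deposited, per library, estimated counts per annotated feature, in which reads are divided between features (35.5% to 37.3% of the IP values above 0 are whole within 1e-06), and RPM values, the same counts scaled to each library's total by the authors. The submitters' processing notes name bcl2fastq 2.19, STAR 2.5.2b, bedtools 2.29.0 and the builds dm6 and mm10, without roles. Duplicate removal and use of strand are not given in the sources used here, so antisense and overlapping entries are uncertain and intervals cover counting error only.

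The 123041 features, without reads outside annotation, were summed to 30158 entries in 41 classes and rounded. The 4886 with at least 30 counts over the 3 IP libraries were tested in edgeR 4.0.16 (R 4.3.3) with glmQLFit and glmQLFTest on all 6 libraries in 4 groups, with 2 residual degrees of freedom, Benjamini-Hochberg adjustment and a threshold of 0.05. On simulated data for this comparison with the 4886 entries, 66.5% of 200 entries changed 4-fold were recovered, and 2.21% of 136 calls were false. The simulated non-crosslinked library varied by the fitted spread and all other entries were left unchanged. It therefore cannot test the assumption about the lone library, nor give the share of false calls in the real comparison. Entries were named by rule: the 10 largest rises and falls called with both totals among those with at least 300 counts, the 3 entries with most reads in each class of at least 0.1% of annotated reads, the 5 largest and smallest anticodon changes, arx, and up to 4 called members of each gene list. U4, U7, the selenocysteine tRNA, 5.8S, the 28S fragment, the mitochondrial tRNA for tryptophan, armi and tj were added after their values were seen. The members and lists were chosen with earlier results of these data known. Of 14680 gene names 14631 matched the RefSeq table of Release 6. A deposited ratio table with no stated formula was not used. Alternatives are given in the closing section; limma 3.58.1, DESeq2 1.42.0, Python 3.11.15, pandas 2.3.3 and scipy 1.17.1 were used.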

Additional observations from a re-analysis of the deposited data

Results flagged for a closer look

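For 32 entries chosen by the naming rule, the ratio of IP to input differed with and without crosslinking by edgeR's test of the difference, past the threshold with both totals. Values are log2 of the ratio with crosslinking over the ratio without.

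Among rRNAs the difference was 1.58 for 18S, 1.59 for 5S, 1.89 for the 5S pseudogene CR33363, 1.85 for the large and 1.79 for the small mitochondrial rRNA, and -6.40 for 2S, whose level in the non-crosslinked input was 0.0914 CPM. The mitochondrial tRNA for isoleucine was at 4.24. Among nuclear tRNAs tRNA-Ser-TGA was at 1.89 and tRNA-Ser-GCT at 1.79, while tRNA-Gln-CTG was at -2.37, tRNA-Gly-GCC at -1.83 and tRNA-Glu-CTC at -1.43.

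For small nuclear and nucleolar RNAs the difference was -2.94 for U1, -2.86 for U11, -3.04 for U6, -2.36 for Psi28S-3342, -2.49 for gcl-a and -2.95 for PsiU1-6. Psi28S-3342 had 6206 and 7031 CPM in the crosslinked IP libraries and 5751 CPM in the non-crosslinked IP, and 764 and 904 CPM in the crosslinked inputs and 141 CPM in the non-crosslinked input. Among non-coding genes CR42862 was at 1.56, introns of CR42491, which lies within RpL22, at -1.34 and Uhg2 at -3.50.

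Of the transposons Copia was at 1.75, while DM412 was at -2.49, Stalker4 at -1.80, blood at -2.675 and DM176 at -1.69. Among protein-coding genes exons of CG18343 were at 7.29, with 2 reads in the non-crosslinked IP, and those of piwi at -1.96. Introns of piwi were at 4.625, with 1 read in the non-crosslinked IP, and those of CG34355 at -1.35, CG3902 at -2.21 and RpL22 at -2.37.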

How the results depend on the processing

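The non-crosslinked arm has 1 library, so its spread is borrowed from the crosslinked groups and depth limits entries near the floor of 3 reads. The count of 1312 called entries was 514 with DESeq2's Wald test, 2269 over single features and 832 at an adjusted p of 0.01, and 650 to 1330 without 1 library, the lowest without crosslinked IP replicate 2. The count of 595 by the ratio to input was 247 with DESeq2, 372 with no filter on low counts and 351 at 0.01. The cause was not tested, except that a stricter threshold or an added filter tests or passes fewer entries by construction. With a replicate block 1393 and 737 entries were called. Same-numbered crosslinked IP and input libraries deviated together with a correlation of 0.154 over 2988 entries, the labels do not say that they share a culture, and no pairing was assumed.

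Of the named entries past the threshold none reversed in the IP comparison under the normalizations, filters, tests and left-out libraries tried. Relative to input, which was tested apart, 21 entries called higher in the IP were lower, U11 (-2.86) and gcl-a (-2.49) among them. Among entries not past it, the precursor rRNA reversed to -0.033 with DESeq2 size factors, and with rRNA left out U1 reversed to 0.043, U2 to 0.064, Or-aca4 to 0.10, Psi18S-176 to 0.31 and PsiU6-40 to 0.27. With TMM factors Psi18S-176 was at 0.19 and PsiU6-40 at 0.14, and with limma on RPM at 0.041 and 0.0010. The cluster piRNAdb-15 ran from -0.014 without crosslinked IP replicate 2 to 0.19 without replicate 1.

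Among class ratios (log2), leaving rRNA out moved snoRNA to 0.56, snRNA to -0.017, LTR elements to 0.68, introns to -0.23, exons to -0.12 and reversed piRNA clusters to 0.29. Leaving tRNA out as well gave 0.45, -0.13, 0.57, -0.34, -0.23 and 0.18 for the same classes. With reads outside annotation in the total rRNA was at 0.28, snoRNA at 0.29, snRNA at -0.29 and exons at -0.39. Relative to inputs tRNA reversed to 0.025, snoRNA to -0.24, RNase MRP RNA to 0.42 and mitochondrial tRNA to -1.435, while snRNA moved to -1.25, LTR elements to 0.21, introns to -0.025 and exons to -0.82.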

Other observations

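Some further RNAs, named after their values were seen, had called differences. The RNA of RNase P, the enzyme that trims the 5' ends of tRNA precursors, had 319 and 317 CPM in the crosslinked IP libraries, against 143 CPM in the non-crosslinked IP, and rose on the log2 scale by 1.15 ± 0.26 (SE, adjusted p 0.000169 by edgeR). The LINE element R2, which inserts into 28S rRNA genes as R1 does, had 74.3 and 88.1 CPM, against 19.3 CPM without crosslinking, and rose by 2.08 ± 0.35 (SE, adjusted p 1.11e-07 by edgeR). The LTR element Gypsy6 had 150 and 167 CPM with crosslinking and 77.7 CPM without, and rose by 1.03 (SE 0.29). In all 3 cases both crosslinked libraries lay above the non-crosslinked one.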
